A study of Arabidopsis thaliana and Zea mays with 822 samples.

Results

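The results describe genome editing in maize protoplasts by 3 forms of CasΦ-2, a compact RNA-guided nuclease of the CRISPR-Cas family that comes from huge bacteriophages. All samples whose titles name guide RNAs against the maize Lc gene were taken, which gave 70 of the 822 samples of the series, 66 of them transfected and 4 controls. The cells were mesophyll protoplasts of the inbred line B73, from etiolated seedlings whose labelled age is 10 to 12 days. Each transfected sample received ribonucleoproteins (RNPs) assembled in vitro from purified protein and 1 of 11 guide RNAs (Lc gRNA1 to gRNA11), and each of the 3 proteins was combined with each guide in 2 replicate transfections. The proteins were the wild-type enzyme (WTCasΦ), a variant in which the negatively charged tip of helix α7 is replaced by a glycine-serine linker (vCasΦ) and a variant in which residues of the same tip are changed to alanine (nCasΦ). The 4 controls belong to 4 amplicons, which serve gRNA1 to gRNA3, gRNA4 and gRNA5, gRNA6 to gRNA8, and gRNA9 to gRNA11. Their labels do not say whether the control protoplasts received protein or guide. No sequence or expression marker in the amplicons allows the labelled cell type to be checked.

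Lc (Leaf colour) belongs to the R/B family of basic helix-loop-helix transcription factors, which switch on the anthocyanin pigment genes of maize. CasΦ-2 binds a protospacer next to a T-rich PAM and opens both strands with its single RuvC active site, at staggered positions toward the far end of the target. Repair of such a break in plant cells usually leaves a deletion of several base pairs. Helix α7 lies in the path of the target strand, and the comparison of the 3 proteins asks whether changes of its tip alter editing in a monocot and at more than 1 target.

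Editing was read from amplicon sequencing of genomic DNA as the number of reads of every mutation pattern. A pattern counted as edited when it inserted or removed 3 bp or more and had at least 10 reads in the library, and editing efficiency is the share of edited reads among all reads of that library, in percent. The 66 transfected libraries held 24370 to 81104 reads (median 44748) and the 4 controls 20925 to 44699, so that 10 reads are 0.0123% to 0.0410% of a transfected library. Depth was alike for the enzymes, with medians of 47004.5 reads for WTCasΦ, 45057 for vCasΦ and 41856.5 for nCasΦ. Intervals for single libraries are 95% Wilson intervals, and a library without edited reads is given a nominal limit of 3 reads of its total. This limit does not cover reads of patterns below the read minimum, which numbered 17 (0.0237%) in nCasΦ replicate 2 of gRNA2. The reads carry no molecular identifiers, so intervals and limits cover counting error only. No 2 of the 70 files were identical.

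Positions in a pattern are counted from a zero point near the PAM-distal end of the target, with no position 0, and -7:11D thus stands for the removal of 11 bp, from -7 to -1 and from 1 to 4. The single-base variants in the files name the bases of a 14-base window from -8 to 6 around this point, in which the last 10 bases of the 20-base spacer fill -8 to 2. These windows are shown because they hold the ends of most deletions. They are written 5′ to 3′ on the strand of the guide, with n for a base that the files do not settle, and capitals mark the bases removed by the deletion with the most edited reads at that guide. The window of gRNA8, which has no capitals, is the exact reverse complement of that of gRNA6, so that these 2 guides have their zero points 2 bp apart on opposite strands. Their spacers run into this window from opposite sides and share 6 of its 14 bases. The windows of gRNA4 and gRNA5 lie on 1 strand, 3 bases apart. Genome coordinates of the Lc sites were not analysed here.
gRNA3: caNNAATTAAACCc
gRNA4: nGAGTGTACGTGga
gRNA5: gTGTACGTGGAtgt
gRNA6: aCTCAACCAGAGct
gRNA7: cactNCTgctgttc
gRNA8: agctctggttgagt

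Editing was found with 5 of the 11 guides, gRNA3 to gRNA7, and in 22 of the 66 transfected libraries. vCasΦ edited all 5 of these sites in both replicates, nCasΦ edited 4 in both replicates and gRNA5 in 1 of 2, and WTCasΦ edited gRNA6 in both and gRNA7 in 1 of 2. Edited reads numbered 457 for WTCasΦ, 5883 for vCasΦ and 6941 for nCasΦ over 22 libraries each. None of the 4 controls had an edited read, which allows up to 0.00671% to 0.0143% of their reads. All 13281 edited reads were deletions, and no insertion of 3 bp or more reached 10 reads.

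**Figure D1:**
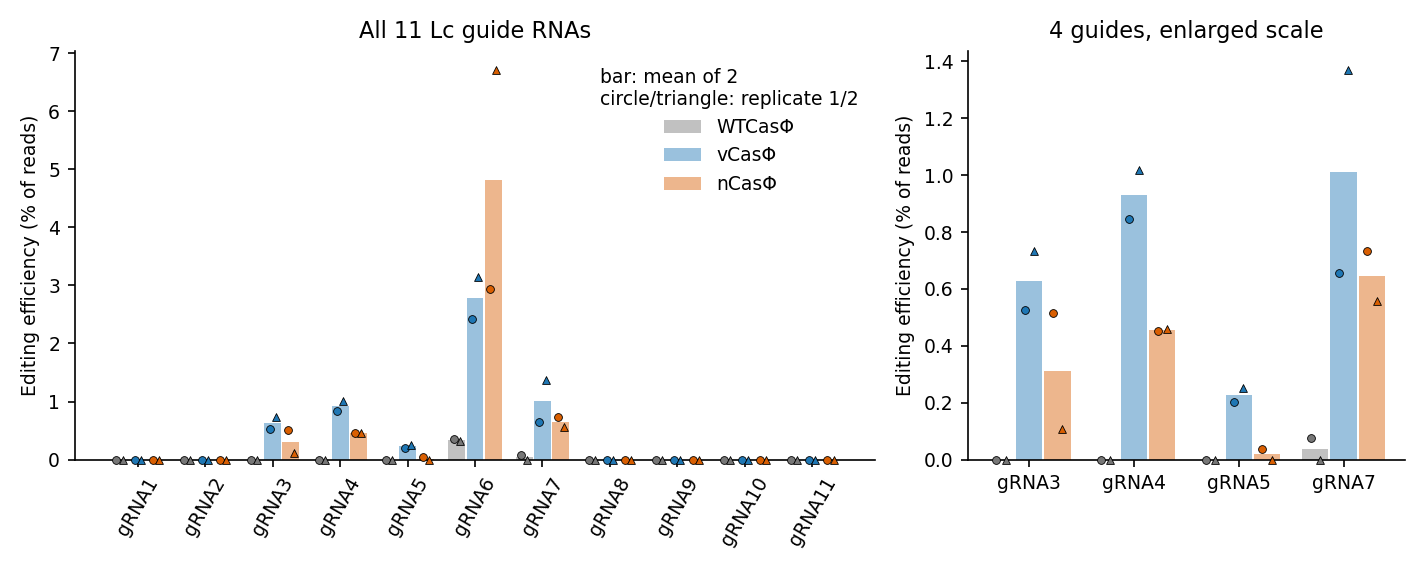
Editing efficiency (% of all reads of a library) by guide RNA and enzyme, for all 11 guides at the left and for gRNA3, gRNA4, gRNA5 and gRNA7 on an enlarged axis at the right. Bars are means of 2 replicate transfections and symbols the single libraries. The variants stand above WTCasΦ at gRNA3, gRNA4, gRNA6 and gRNA7, and at gRNA5 only vCasΦ does so in both replicates. nCasΦ at gRNA6 reaches 6.71%, and gRNA1, gRNA2 and gRNA8 to gRNA11 lie at 0.

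gRNA6 gave the highest editing with each enzyme. With WTCasΦ, 0.353% (interval 0.310% to 0.401%) and 0.326% (0.283% to 0.376%) of the reads of the 2 replicates were edited. With vCasΦ the values were 2.42% (2.31% to 2.55%) and 3.15% (3.00% to 3.30%). With nCasΦ they were 2.94% (2.81% to 3.08%) and 6.71% (6.50% to 6.92%). Every library of a variant lay above both WTCasΦ libraries, whereas the ranges of the variants overlapped. The means were 0.339% ± 0.0188 (SD, n = 2) for WTCasΦ, 2.79% ± 0.512 for vCasΦ and 4.82% ± 2.66 for nCasΦ, which are 8.21-fold and 14.2-fold that of WTCasΦ. The replicates of nCasΦ differed 2.28-fold, and their counting intervals do not overlap.

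gRNA7 was the second site at which WTCasΦ left edited reads. WTCasΦ had 40 edited reads in 1 replicate (0.0747%, interval 0.0549% to 0.102%) and 0 of 49994 in the other, which allows up to 0.00600%. vCasΦ edited 0.657% and 1.37% of reads, and nCasΦ 0.733% and 0.559%. All 4 libraries of the variants were thus above both WTCasΦ libraries, and the variants overlapped each other. The means of vCasΦ and nCasΦ were 1.01% ± 0.504 and 0.646% ± 0.123 (SD, n = 2), 27.1-fold and 17.3-fold the WTCasΦ mean of 0.0374%, a mean that rests on 1 library.

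At gRNA4, gRNA3 and gRNA5 no WTCasΦ library reached the criterion, and the 6 libraries together held at most 1 read each of any deletion of 3 bp or more over the spacer. At gRNA4, vCasΦ edited 0.846% and 1.02% of reads and nCasΦ 0.452% and 0.458%. The replicates of each enzyme lay close together, and vCasΦ was above nCasΦ by 2.05-fold in the mean without overlap. The means of vCasΦ and nCasΦ were 142-fold and 69.3-fold the nominal WTCasΦ limit of 3 reads per library.

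gRNA3 gave 0.525% and 0.734% with vCasΦ and 0.516% and 0.106% with nCasΦ. Both vCasΦ values exceeded both nCasΦ values, but the higher nCasΦ replicate was 4.85-fold the lower one and nearly reached the lower vCasΦ replicate, whose counting interval (0.459% to 0.599%) contains it. The vCasΦ mean was 99.1-fold and the nCasΦ mean 49.0-fold the nominal limit for WTCasΦ.

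gRNA5 was the weakest of the 5 sites. vCasΦ edited 0.202% and 0.252% of reads, and nCasΦ gave 15 edited reads in 1 replicate (0.0387%, interval 0.0235% to 0.0639%) and 0 of 28015 in the other, which allows up to 0.0107%. The vCasΦ mean was 11.7-fold that of nCasΦ and 29.9-fold the nominal limit for WTCasΦ. nCasΦ at gRNA5 was the only pairing of a variant and an edited site that overlapped WTCasΦ.

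With 2 libraries against 2 at a single guide an exact permutation test cannot go below p = 0.333, and with the 4 libraries of both variants against 2 of WTCasΦ it reached its smallest two-sided p of 0.133 at gRNA3, gRNA4, gRNA6 and gRNA7. The enzymes were therefore compared over all 11 guides by permuting the ranks of the libraries within each guide. Averaged over the 11 guides, editing was 0.0343% with WTCasΦ, 0.508% with vCasΦ and 0.569% with nCasΦ. vCasΦ exceeded WTCasΦ by 0.474 percentage points (SE 0.0480), a 14.8-fold ratio of means, and was higher without overlap at 5 guides and lower at 0 (exact two-sided permutation test p = 2.57e-04, the smallest this design allows with 6 guides at 0, adjusted p = 7.72e-04 over the 3 pairs of enzymes). nCasΦ exceeded WTCasΦ by 0.534 percentage points (SE 0.172), a 16.6-fold ratio, and was higher at 5 guides, without overlap at 4 (exact p = 7.72e-04, adjusted p = 0.00116). Without gRNA6 the differences fell to 0.276 percentage points for vCasΦ (0.280% against 0.00374%, adjusted exact permutation p = 0.00463) and 0.139 for nCasΦ (0.143% against 0.00374%, adjusted exact permutation p = 0.00694). With 100 reads required per pattern, the nCasΦ difference was 0.425 percentage points at the smallest exact p then possible (0.0556), so that no call could be made.

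Between the variants, no difference passed the test over the 11 guides, and the sign differed among the guides. The mean difference, vCasΦ minus nCasΦ, was -0.0607 percentage points (SE 0.179), yet vCasΦ was higher at 4 guides, without overlap at gRNA3, gRNA4 and gRNA5, and lower at gRNA6 alone (exact permutation test of ranks, p = 0.0543, adjusted p = 0.0543). The ranks that this test uses leaned toward vCasΦ, opposite to the sign of the mean difference. gRNA6 accounted for 79.8% of the edited reads of nCasΦ and 54.4% of those of vCasΦ, so it decides the sign of the mean. Without it vCasΦ was higher by 0.137 percentage points (0.280% against 0.143%, adjusted exact permutation p = 0.00772). Leaving out replicate 2 of nCasΦ (vCasΦ higher by 0.0824, adjusted exact p = 0.173) or replicate 1 of vCasΦ (higher by 0.0242, adjusted exact p = 0.0494) also turned the sign. The interval of 1 SE around the difference spans 0, and these data do not show that the variants act alike.

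The 6 other guides gave no edited read with any enzyme in 36 libraries. gRNA8, whose window is that of gRNA6 on the other strand, had at most 1 read of any deletion or insertion of 3 bp or more per library, where gRNA6 had 187 to 3711 edited reads. gRNA9, gRNA10 and gRNA11 likewise had at most 1 such read per library. gRNA10 had 0 in its 6 libraries. The floors of the libraries without edited reads ran from 0.00370% to 0.0123%, and since a pattern needs 10 reads, editing spread over patterns with fewer reads counts as 0. gRNA1 and gRNA2 had such reads at low counts, which are given with the other observations.

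The edited reads fell into few patterns. Libraries with editing held 1 to 19 patterns past the criterion, and over the 5 sites the 22 libraries held 84 different deletions, of which 61 were seen in 1 library only and 23 in 2 or more. At the spacers of these 5 guides, 117 entries of a deletion in a library had 20 reads or more and only 3 had 10 to 19, against 11 with 4 to 9 reads and 43 with 1 to 3. The read minimum thus fell in a sparsely filled stretch. Replicates of 1 enzyme often differed in their deletions. Of 55 vCasΦ deletions 11 were present in both replicates, and of 43 nCasΦ deletions 5 were. At gRNA5 the 90 edited reads of vCasΦ replicate 1 were all a deletion of 10 bp, and the 104 edited reads of replicate 2 were all a deletion of 25 bp.

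At gRNA6, 40 different deletions passed the criterion, and the 5 with the most reads were -7:11D, -5:9D, -6:10D, -5:10D and -5:21D. The leading -7:11D, which removes the capitals in the gRNA6 window above, held 27.9% of all edited reads at this guide. It made up 0.192% and 1.10% of all reads with vCasΦ and 0.911% and 2.30% with nCasΦ, and it had 0 reads in both WTCasΦ libraries. -5:9D was the only deletion present in all 6 libraries of a guide. It held all 230 edited reads of WTCasΦ replicate 1 (0.353% of the library) and 48 reads of replicate 2 (0.0837%). With vCasΦ it made up 0.0419% and 0.256% of all reads and with nCasΦ 0.327% and 1.09%, so that 1 of the vCasΦ libraries lay below both WTCasΦ libraries for this deletion.

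The next 2 deletions, -6:10D and -5:10D, were each found in both vCasΦ libraries and in nCasΦ replicate 2. -6:10D made up 0.242% and 0.552% of reads with vCasΦ and 0.721% in that nCasΦ library. -5:10D made up 0.369% and 0.235% with vCasΦ and 0.555% with nCasΦ. Both had 0 reads in nCasΦ replicate 1 and with WTCasΦ. -5:21D was found in nCasΦ replicate 1 alone, with 302 reads. Of the 4 deletions that WTCasΦ left at gRNA6, 2 were also found with a variant.

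**Figure D2:**
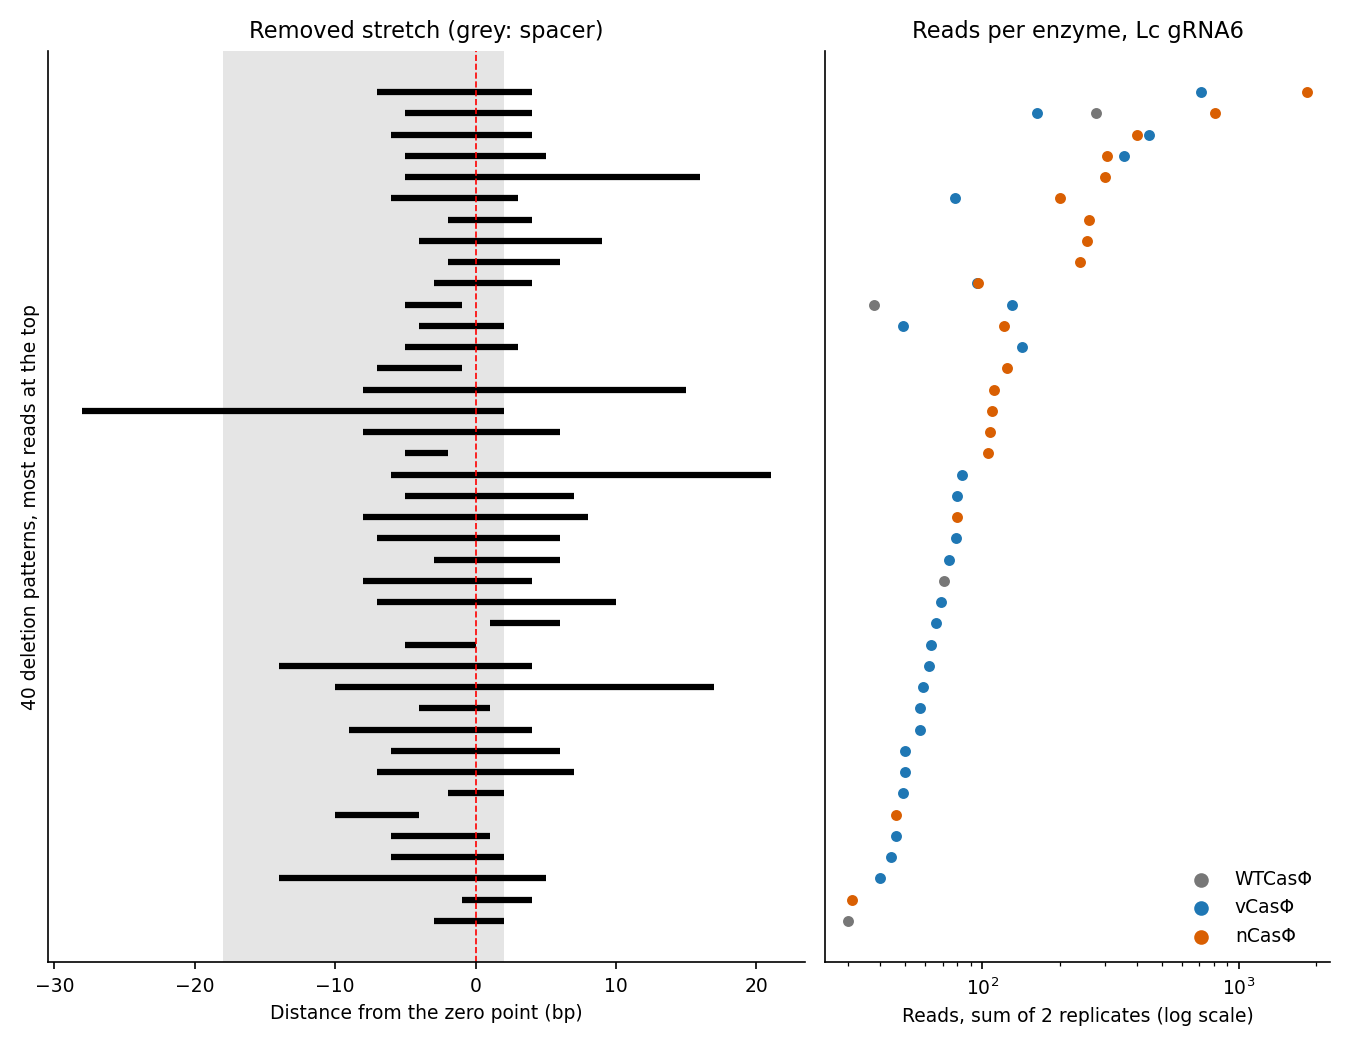
The 40 deletions found at Lc gRNA6, 1 per line, ordered by reads. The left panel shows the stretch each removed as distance from the zero point (bp), with the spacer in grey, and the right panel its reads per enzyme, summed over 2 replicates, on a log axis. Most lines cross the zero point and end past the spacer. The line of -7:11D, at the top, carries reads of vCasΦ and nCasΦ, that of -5:9D reads of all 3 enzymes and that of -5:21D reads of nCasΦ alone.

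The leading deletions at the other sites were close in place and size to that of gRNA6. At gRNA4, -7:11D was read in both vCasΦ libraries (0.314% and 0.174% of reads) and in nCasΦ replicate 1 (0.127%), and it held 22.7% of the edited reads of the guide. At gRNA3, -6:11D held 29.4%, with 0.432% of reads in vCasΦ replicate 2 and 0.142% in nCasΦ replicate 1 and 0 elsewhere. At gRNA5, -7:10D held 50.2% (105 reads), in vCasΦ replicate 1 and nCasΦ replicate 1, against 104 reads of -16:25D in vCasΦ replicate 2. gRNA7 differed, since its leading deletion, -4:3D, removed 3 bp and came from 1 library, vCasΦ replicate 2, with 309 reads (0.570%), and it had 1 read in nCasΦ replicate 1.

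Over all 5 sites, 90.7% of the edited reads had a deletion that started between -8 and -3, the median start was -6 and the median last base removed was 4. The medians of the last base were 4 with each of the 3 enzymes and those of the start -5 with WTCasΦ and -6 with both variants. Position -1 was removed in 91.7% of the edited reads of WTCasΦ, 88.5% of vCasΦ and 95.3% of nCasΦ. Only 15.6% of the edited reads had a deletion that lay wholly within the spacer, which ends at position 2. This share was 14.9% with WTCasΦ, 26.1% with vCasΦ and 6.76% with nCasΦ, and it ran from 0 at gRNA5 to 42.8% at gRNA4. The lowest start was -28 and the highest last base 21. These shares pool reads of unlike libraries, with gRNA6 the largest contributor, and are given as a description.

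Deletion sizes ran from 3 to 30 bp. Of the 22 libraries with editing, 21 had at least 20 edited reads and were used for sizes, 3 of WTCasΦ, 10 of vCasΦ and 8 of nCasΦ. The read-weighted mean size of a library ranged from 8 to 9 bp with WTCasΦ (median 8.48), from 7.16 to 25 bp with vCasΦ (median 10.1) and from 9.40 to 15.5 bp with nCasΦ (median 10.6). The WTCasΦ libraries stem from gRNA6 and gRNA7 only, so these ranges cover different guides.

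Deletions of 8 to 10 bp held on average 75.2% of the edited reads of a WTCasΦ library, 28.7% of a vCasΦ library and 23.7% of an nCasΦ library. The WTCasΦ share was 25.7% in replicate 2 of gRNA6. It was 100% in replicate 1 of gRNA6 and of gRNA7, which each held a single deletion. Deletions of 11 to 15 bp held 12.7%, 37.1% and 50.0%, and the WTCasΦ share came from replicate 2 of gRNA6 alone (38.0% there, 0 in the other 2 libraries). Deletions over 15 bp held 14.6% with vCasΦ, or 5.08% without replicate 2 of gRNA5, and 7.75% with nCasΦ, or 3.51% without replicate 2 of gRNA4. They were not found in the 3 WTCasΦ libraries, which held 457 edited reads and 6 entries of a deletion in a library, against 66 with vCasΦ and 48 with nCasΦ. Deletions of 3 to 5 bp held 12.1%, 12.5% and 3.62%, where the WTCasΦ share again came from replicate 2 of gRNA6 alone and that of nCasΦ was 0.524% without replicate 1 of gRNA3. No test was made on these classes, since they rest on few patterns and on different guides.

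**Figure D3:**
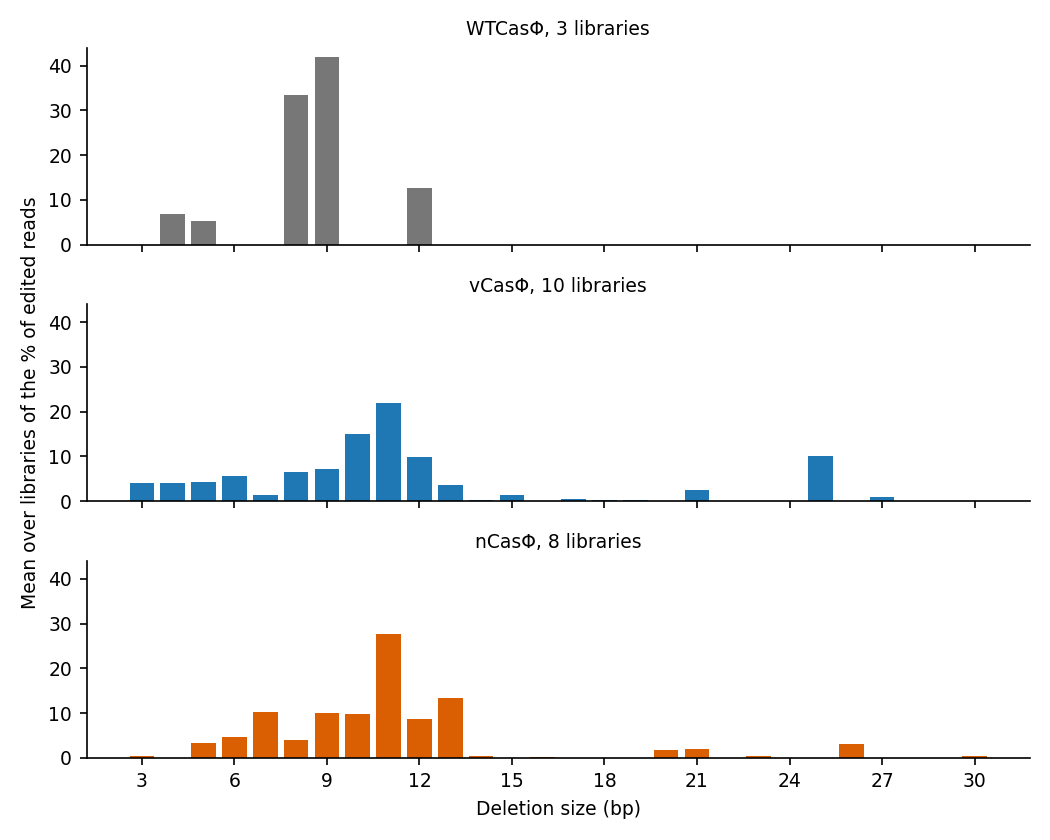
Deletion sizes by enzyme, as the mean over libraries of the percentage of edited reads with each size (bp), for 3 WTCasΦ, 10 vCasΦ and 8 nCasΦ libraries. WTCasΦ has its highest bars at 8 and 9 bp, and the variants have their highest bar at 11 bp. The bar at 8 bp for WTCasΦ is 1 library of gRNA7 with 40 edited reads. The bar at 25 bp for vCasΦ is 1 library of gRNA5.

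The enzymes can be compared at the same guide only where every library had enough reads. Against WTCasΦ this was gRNA6 alone. There the mean size was 9 and 8.48 bp with WTCasΦ, 11.2 and 10.1 bp with vCasΦ and 11.6 and 10.7 bp with nCasΦ. Both variants were above WTCasΦ without overlap, by 1.92 bp (SE 0.598) and 2.42 bp (SE 0.513), but with 2 libraries against 2 the exact permutation test gave its smallest p of 0.333 for each (adjusted p = 0.5).

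Between the variants 4 guides could be compared. The mean size at gRNA3 was 13.1 and 10.2 bp with vCasΦ and 9.75 and 11 bp with nCasΦ. At gRNA4 it was 9.68 and 7.62 bp against 10.4 and 15.5 bp, the only guide without overlap. At gRNA7 it was 10.0 and 7.16 bp against 9.40 and 9.75 bp. Including gRNA6, vCasΦ had the lower mean at 3 of 4 guides, by 1.12 bp on average (SE 0.883, exact permutation test p = 0.571, adjusted p = 0.571, where 0.00154 was the smallest p possible). The ranges of the replicates overlapped at gRNA3, gRNA6 and gRNA7. The difference exceeded its SE, but its size rested on gRNA4 and on single replicates. It was -0.0679 bp without gRNA4, -2.24 bp without the first vCasΦ replicates and -0.00660 bp without the second, -1.84 bp without the first nCasΦ replicates and -0.408 bp without the second, and -1.93 bp without gRNA3. In nCasΦ replicate 2 of gRNA4, the library with the mean of 15.5 bp, the leading deletion removed 26 bp and 37.4% of edited reads had deletions over 15 bp.

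**Figure D4:**
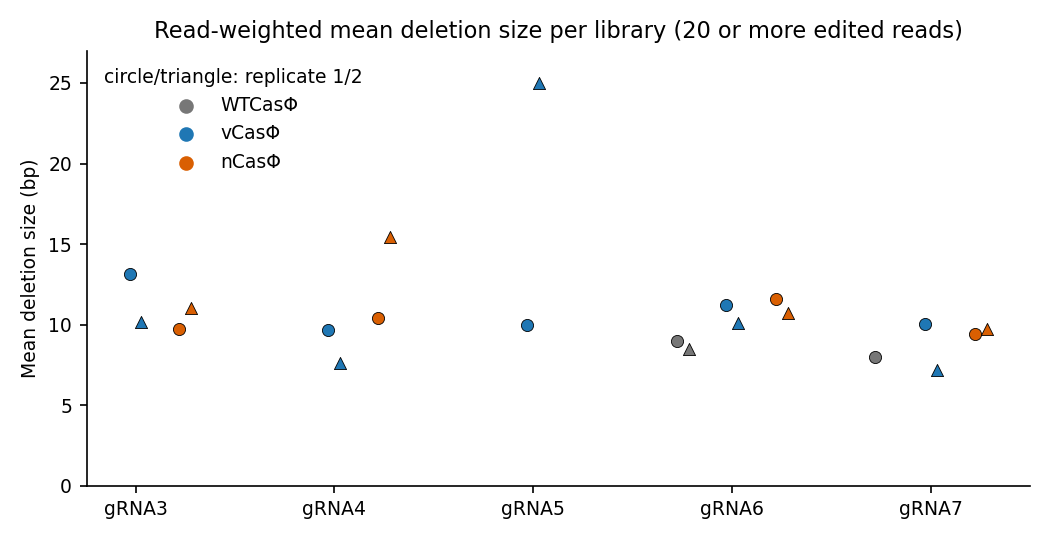
Read-weighted mean deletion size (bp) of each library with at least 20 edited reads, by guide and enzyme, with circles for replicate 1 and triangles for replicate 2. At gRNA6 the 2 WTCasΦ libraries lie below the 4 of the variants, and the vCasΦ libraries of gRNA5 lie at 10 and 25 bp.

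The same enzymes were also used as RNPs with 6 guides, 2 against AtPDS3 and 4 against FWA, in 72 libraries of Arabidopsis protoplasts. The protoplasts were wild type for the AtPDS3 guides and fwa for the FWA guides, the latter being an epi-mutant without DNA methylation at the FWA promoter, and both are pooled below. These had 2012014 to 5163448 reads and were counted with a minimum of 100 reads per pattern, so the values are set side by side without a test. The median over libraries of the mean deletion size was 9.60 bp with WTCasΦ, 9.68 bp with vCasΦ and 9.54 bp with nCasΦ. The ranges were 8.08 to 12.1 bp, 8.11 to 12.0 bp and 8.65 to 11.8 bp. Without FWA gRNA5 and gRNA6, whose sites adjoin runs of adenine, the medians were 9.47, 9.59 and 9.46 bp. The highest means of the maize libraries, 25 bp with vCasΦ and 15.5 bp with nCasΦ, rested on 1 and 6 patterns.

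Insertions and deletions of 1 or 2 bp, which the criterion leaves out, were rare with all enzymes. Their share of reads over the 11 guides was 0.0105% with WTCasΦ, 0.0172% with vCasΦ and 0.0118% with nCasΦ. No pair of enzymes passed the test (exact permutation test, adjusted p = 0.562 for vCasΦ and 0.387 for nCasΦ against WTCasΦ, and 0.562 between the variants). The controls had 1 or 2 such reads each, 0.00267% to 0.00478% of their totals. The single library that stood out, vCasΦ replicate 1 of gRNA6, had a deletion of positions 1 and 2 in 89 reads (0.144%), where all other transfected libraries had 0% to 0.0360% of reads with any indel of 1 or 2 bp.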

How the data were processed

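Genomic DNA of maize protoplasts was amplified and sequenced on an iSeq 100. Per the methods, Trim Galore was used for trimming, BWA 0.7.17 (BWA-MEM) for alignment to the amplified locus and CrispRVariants for export. The raw counts of reads per mutation pattern and library were deposited by the authors. The genome build for maize is not given in the sources used here. Total counts per file served as depth.

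All further steps used Python 3.11.15, NumPy 2.4.6 and SciPy 1.17.1, with matplotlib 3.10.9 for the figures. Edited reads follow the authors' criterion (indels of at least 3 bp, at least 10 reads per pattern). Enzymes were compared by exact two-sided permutation of ranks within guides with Benjamini-Hochberg adjustment over the 3 pairs. Effects are means over guides of differences of means, and SEs come from the replicate variances. Deletion size was compared at guides whose libraries all had at least 20 reads of deletions. In the main comparisons the p-values rest on the order of the replicate transfections within each guide, and not on the size of the spread between them. The scripts were tested on simulated data. All 11 guides are named, with the leading deletion of each edited guide and the 5 leading deletions of gRNA6. The libraries, comparisons and rules were chosen with earlier results of these data known. Alternatives varied the read minimum, the smallest indel, the depth, the control, the test, the replicates and the guides. The controls carry labels in the position frame of gRNA1, gRNA4, gRNA6 or gRNA9, so the subtraction of a control used its total share and not positions. The other libraries of the series are not used here, apart from 72 Arabidopsis RNP libraries.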

Additional observations from a re-analysis of the deposited data

Results flagged for a closer look

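Reads that CrispRVariants put in no pattern (Other) were found in nCasΦ at gRNA4 above the control, with 26 reads (0.0625%) in replicate 1 and 70 reads (0.188%) in replicate 2. The control of that amplicon had 1 such read (0.00267%) and the other transfected libraries had at most 2. The criterion leaves these reads out. The same libraries had 188 and 171 edited reads.

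Patterns of 1 or 2 bp past 10 reads and above the share of all such indels in the control were found in 2 libraries. The deletion of positions 1 and 2 with 89 reads in vCasΦ replicate 1 of gRNA6 lies at the target. The insertion of 2 bp at position 8 with 11 reads in WTCasΦ replicate 1 of gRNA5 lies at a place where 5 of 6 gRNA5 libraries had 1 or more reads of the same insertion, and it was read in all 6 gRNA4 libraries too, at position 11 of their frame, with 2 to 8 reads, and once in the control.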

How the results depend on the processing

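Over the alternatives tried, vCasΦ minus WTCasΦ in editing efficiency kept its sign and its call in all 32 (adjusted exact permutation p from 5.79e-04 to 0.0185). nCasΦ minus WTCasΦ did so in 31 of 32. In the remaining one, a minimum of 100 reads (0.425 percentage points, adjusted exact permutation p = 0.0833), the smallest p possible was 0.0556, so no call could be made. vCasΦ minus nCasΦ (main value -0.0607 percentage points) passed the threshold with a minimum of 20 reads (-0.0589) and with counts scaled to the smallest library (-0.0666), in both with an adjusted exact permutation p of 0.0424. These p-values come from ranks, which leaned toward vCasΦ, opposite to the negative sign of the mean difference. The mean difference turned sign on the log2 scale with a pseudocount of 0.01 (0.51, adjusted exact permutation p = 0.0298) and without gRNA6 (0.137), and without single replicates it ran from -0.204 to 0.0824. vCasΦ had the higher mean at 4 of the 5 edited guides and the other 6 guides were at 0, and permuting values in place of ranks gave p = 0.981 (exact). The differences in deletion size kept their sign in the alternatives run. Against WTCasΦ the smallest p was 0.333 or higher, so no call was possible, and vCasΦ minus nCasΦ, without a call, ran from -2.24 to -0.00660 bp without single replicates. For indels of 1 or 2 bp, nCasΦ minus WTCasΦ turned sign with a minimum of 10 reads (-0.00106 percentage points), without single replicates vCasΦ minus WTCasΦ ran from -7.82e-04 to 0.0141 and vCasΦ minus nCasΦ from -0.00201 to 0.0129, and the latter was -0.00105 without gRNA6, a setting chosen after seeing the data. With no read minimum, the number of guides with reads of an indel of 3 bp or more in both replicates was 5 for WTCasΦ and 7 for each variant. For WTCasΦ this counts gRNA3, whose libraries had 7 and 5 such reads, with 0 and 1 over the spacer. The control of that amplicon had 2 such reads. With a minimum of 100 reads, the number of guides edited in both replicates was 0, 3 and 2 for WTCasΦ, vCasΦ and nCasΦ. Counting Other reads as edited, also chosen after seeing the data, changed no call. Leaving out single libraries from the size classes was chosen after seeing the data too.

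The labels number the replicates 1 and 2, but nothing says that equal numbers were transfected together. With the replicate block the differences stay as in the main comparison, and the adjusted exact permutation p was 0.00586 for both variants against WTCasΦ and 0.0801 between the variants, so no call changed. Deviations of same-numbered replicates correlated at -0.831 (WTCasΦ and vCasΦ), -0.102 (WTCasΦ and nCasΦ) and 0.595 (vCasΦ and nCasΦ) over 5 guides. On the log2 scale the correlations were -0.968, -0.156 and 0.0557. WTCasΦ had 0 in both replicates at gRNA3, gRNA4 and gRNA5, so its deviations differed from 0 only at gRNA6 and gRNA7.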

Other observations

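Low counts of deletions of 3 bp or more over the zero point of gRNA1 were found in all 18 libraries of gRNA1, gRNA2 and gRNA3. The 6 libraries of gRNA1 had 1 to 10 such reads, those of gRNA2 1 to 16 and those of gRNA3 2 to 7, and the control of the amplicon had 2. As a share of reads the medians were 0.0135%, 0.00806% and 0.00597%, and the control had 0.00820%. No pattern had more than 5 of these reads in a library, so none counts as edited. Their source was not tested.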
